A study of Mus musculus with 6 samples.

Results

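The enzymes that build sugar chains and add sulfate to them were compared between 2 mouse podocyte lines. Members were chosen by gene symbol, as the families of N-acetylgalactosaminyl, N-acetylglucosaminyl, galactosyl, sialyl, fucosyl and xylosyl transferases, the Golgi class I and II mannosidases, and the polymerases and sulfotransferases of heparan and chondroitin sulfate. The rule found 89 of the 12803 genes of the table. It uses symbols and no measured value, but it was set with earlier results of these data known. Of these 88 were tested, and B3gnt4 reached the level required in too few libraries. Each member was given 1 of 14 roles in the pathway.

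Glycans are assembled in steps in the endoplasmic reticulum and Golgi, by enzymes that add sugars or sulfate to defined acceptors or trim sugars away. Where several enzymes compete for an acceptor, or several isoenzymes share a step, their relative levels help to set the chains a cell carries. In the kidney glomerulus, podocytes carry the heavily sialylated podocalyxin on their surface, and heparan sulfate is a charged component of the glomerular basement membrane.

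RNA was sequenced in 3 libraries of each line. The KO group is a podocyte-derived mouse kidney line labelled as a Myosin 1e knockout, and the WT group is the mouse podocyte line labelled Mundel. No age, sex or treatment is labelled, and the heterozygous genotype named in the design text was not analysed here. Because each genotype is 1 line, a difference between the groups cannot be divided between genotype and line. The replicates are called biological without a statement of separate cultures, so p-values reflect only how far these samples spread. In bulk RNA, fewer cells of a type and less RNA per cell cannot be told apart.

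The listed genes held 35447096 to 42106461 reads a library, and 3 reads equal 0.0703 to 0.0856 CPM. CPM is the counts-per-million of a scaled library size, which is these reads times a factor of 0.983 to 1.017. Each level given with ± is a mean and SD over 3 libraries, and where 2 levels are set against each other the KO line comes first. The targeted gene Myo1e kept 9.78% of its WT level in the KO line. Of 16 podocyte markers 11 were in the table, 5 of which rose and 5 fell, and nephrin and podocin, which define the differentiated cell, were not among the genes analysed here. All 12 markers of simple epithelium rose, with a summed level of 8392 to 9171 CPM in the KO libraries and 5.11 to 8.23 CPM in the WT libraries, where 3 of them (Cldn3, Cldn7 and Esrp1) had 0 reads. Of 12 mesenchymal markers 10 were tested, 9 fell and 1 rose, and their sum was 1143 to 1417 CPM in KO and 4205 to 4660 CPM in WT. Of 6 leukocyte markers only Cd68 was in the table, with 2.04 to 2.57 CPM in KO and 1.94 to 3.44 CPM in WT, and of 6 endothelial markers there was none. These marker levels moved with the lines, and their part in the results below was not tested.

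Sugar-chain genes differed between the lines in both directions, and more of them fell than rose. Of 88 members tested, 69 passed the threshold of an adjusted p under 0.05 in limma, or 78.4%, against 68.1% of all 12616 genes tested. The 29 that rose made up 33.0% of the members, close to the 34.3% of all genes, and the 40 that fell made up 45.5%, against 33.8%. At least 2-fold, 14 members rose (15.9%, against 11.7% of all genes) and 23 fell (26.1%, against 16.2%), together 42.0% against 27.9%. At least 16-fold on the fitted scale separated 6 risen members (6.82%, against 3.53% of all genes) and 9 fallen ones (10.2%, against 3.75%), together 17.0% against 7.28%. In 72 members, or 81.8%, the libraries of the lines did not overlap, against 73.5% of all genes. The median log2 fold change was -0.19 over the members and 0.01 over all genes, and the median size of the change, regardless of sign, was 0.75 and 0.51. These shares describe the families and were not tested against other genes.

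**Figure D1:**
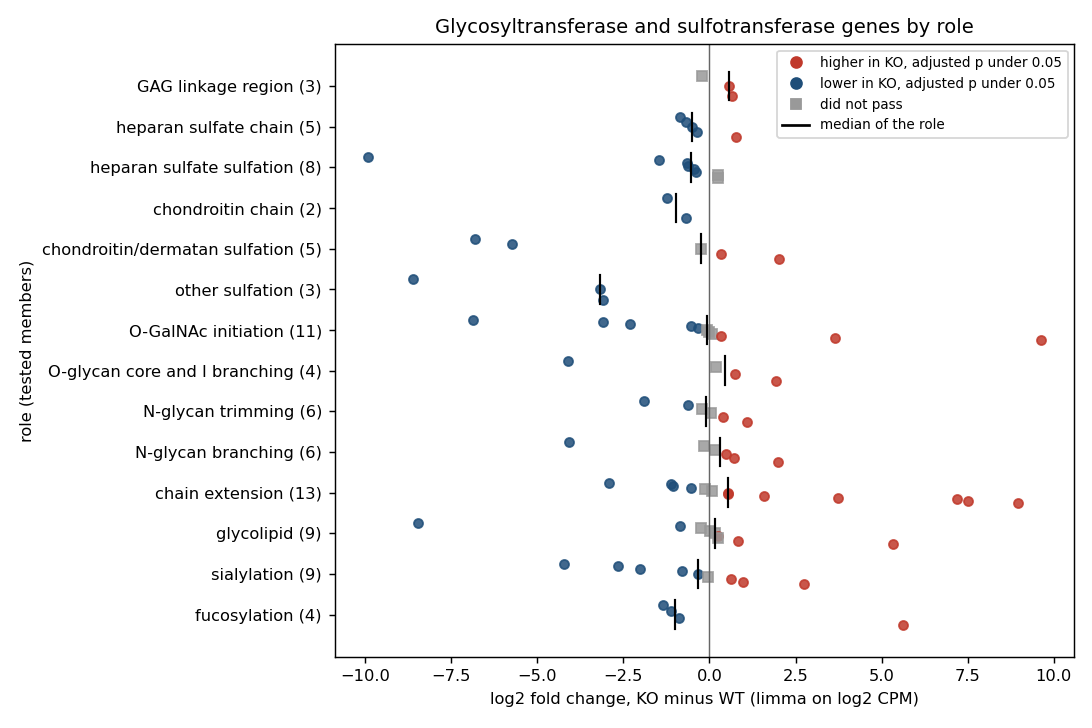
Log2 fold change of each tested member, KO minus WT on deposited log2 CPM, by role, with the number tested in brackets. Red circles rose, blue circles fell, grey squares did not pass, and black bars are role medians. Heparan sulfate, chondroitin chain and other sulfation genes lie mostly to the left, and chain extension genes reach from -2.93 to 8.96.

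By role, the members were few and the counts were not tested against each other, and over all genes 34.3% rose and 33.8% fell. In heparan sulfate sulfation 6 of 8 tested members fell and none rose, and in the group of other sulfation, which acts on keratan sulfate and on capping sugars, 3 of 3 fell. Both chondroitin chain members fell, as did 3 of 4 fucosyltransferases. In chain extension 7 of 13 rose and 4 fell. The mucin-type initiators split into 3 that rose, 5 that fell and 3 that did not pass.

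The widest separations ran in both directions and often left 1 line with few or no reads. Galnt3 and B4galnt3 were abundant in the KO line and near 0 in the WT line, and Hs6st2, Chst1 and B3galnt1 the reverse. For 4 of the widely separated genes, B3gnt3 and St8sia1 in the KO direction and Chst1 and B3galnt1 in the WT direction, the 250 bases before the transcription start are shown as the RefSeq table gives them (GRCm38.p6), 5′ to 3′ on the strand of the gene. They were chosen because GENCODE M21 places no exon of any gene in these windows, and they show a risen gene with the motif described below, a risen gene without it and 2 fallen genes without it. The Chst1 window lies inside the GENCODE M21 model of Chst1, between its exons, so it is upstream of the RefSeq start only. Capitals mark CACCTG on either strand (CAGGTG as read on the other), an E-box that zinc-finger repressors of epithelial genes can bind. The stretches are chr8:71701801-71702050 on the minus strand for B3gnt3, chr6:142964453-142964702 on the minus strand for St8sia1, chr2:92600867-92601116 on the plus strand for Chst1 and chr3:69598961-69599210 on the minus strand for B3galnt1.
B3gnt3: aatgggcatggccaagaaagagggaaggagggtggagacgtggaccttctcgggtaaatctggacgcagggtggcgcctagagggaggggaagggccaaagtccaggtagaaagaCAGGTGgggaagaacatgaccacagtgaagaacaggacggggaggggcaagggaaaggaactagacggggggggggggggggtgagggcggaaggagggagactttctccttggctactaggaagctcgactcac
St8sia1: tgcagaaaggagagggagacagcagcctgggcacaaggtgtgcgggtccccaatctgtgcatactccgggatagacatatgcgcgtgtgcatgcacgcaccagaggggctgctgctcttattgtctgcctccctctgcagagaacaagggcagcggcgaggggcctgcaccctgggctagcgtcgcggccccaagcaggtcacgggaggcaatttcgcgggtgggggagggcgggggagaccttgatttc
Chst1: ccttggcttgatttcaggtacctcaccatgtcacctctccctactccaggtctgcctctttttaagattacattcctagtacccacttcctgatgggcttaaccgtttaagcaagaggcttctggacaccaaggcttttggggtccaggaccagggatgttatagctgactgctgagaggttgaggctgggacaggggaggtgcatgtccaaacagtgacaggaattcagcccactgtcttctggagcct
B3galnt1: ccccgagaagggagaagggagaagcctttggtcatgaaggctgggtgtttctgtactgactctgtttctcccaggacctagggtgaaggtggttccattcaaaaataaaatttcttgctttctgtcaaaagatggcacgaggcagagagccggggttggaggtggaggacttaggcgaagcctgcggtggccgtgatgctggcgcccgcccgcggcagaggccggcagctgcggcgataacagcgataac

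Of the 14 members that rose most, 12 had an entry in that table, and 4 of the 12 held CACCTG, Galnt3 at both -170 and -57 from the start, Fut1 at -142, B3gnt3 at -135 and B4galnt3 at -81. GENCODE M21 places exons in 201 of the 250 bases before the RefSeq start of Galnt3, in 139 of those of Fut1 and in all 250 of those of B4galnt3, so these windows are not free of transcribed sequence. The B4galnt3 window lies upstream of the B4galnt3 model, so the exons in it belong to another gene model. Among the risen, 5 genes had a window free of exons, and B3gnt3 was the only 1 of them with the motif: St8sia1, St3gal6, Mgat4a and B4galt3 lacked it there. For Mgat4a, these windows include 1 that lies inside its own gene model. Of the 14 that fell most, 13 had an entry and 1, Galnt17, held the motif, in a window with exons in all 250 bases. Among the fallen, 6 genes had a window free of exons, and 0 of them held the motif there. That of Chst1 lies inside its own gene model. Over all 67 members with an entry it was present in 11, or 16.4%, against 19.4% of all 27025 genes of the table and 18.4% of those also measured here. The motif AACCGGTT, which Grainyhead-like factors can bind and which reads the same on both strands, was in 0 of the 67 members and in 0.137% of all genes. Both motifs were chosen with the epithelial gene differences of these lines known. A match describes letters in this window and no more.

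**Figure D2:**
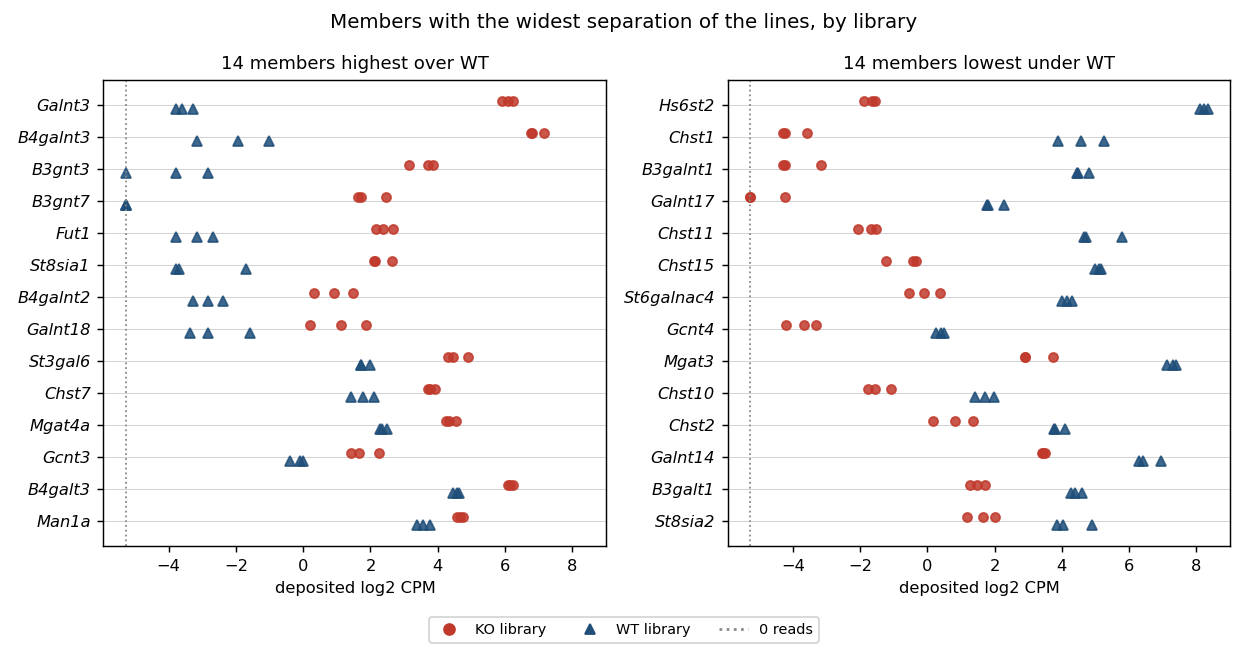
Deposited log2 CPM of each library for the 14 members highest over WT (left) and the 14 lowest under WT (right), ordered by fitted fold change. Red circles are KO libraries, blue triangles WT libraries, and the dotted line is the value of 0 reads; B3gnt7 sits on it in all WT libraries and Galnt17 in all but 1 of the KO libraries.

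The linkage region joins every heparan and chondroitin chain to its protein, and 2 of the 3 tested members that build it rose. B4galt7, which adds the first galactose, had KO values of 30.6, 27.5 and 30.1 CPM and WT values of 21.1, 18 and 20.6 CPM (log2 fold change 0.56, SE 0.10, limma adjusted p = 0.0013), and was the linkage member with the highest level per kilobase in both lines. Xylt2, the xylosyltransferase that begins the chain, was at 36.2 ± 2.54 against 23.2 ± 2.07 CPM (log2 fold change 0.64, limma adjusted p = 5.9e-04). B3galt6, which adds the second galactose, was at 8.96 ± 0.128 against 10.4 ± 0.406 CPM and did not pass (log2 fold change -0.21, limma adjusted p = 0.120), though it did when limma took no account of how the spread follows the mean level (limma adjusted p = 0.0424). In all 3 members the libraries of the lines stood apart. Some enzymes of this region lie outside the member rule. Of these, B3gat3 fell (log2 fold change -0.24, limma adjusted p = 0.0271, 0.0178 to 0.0980 over the alternatives). Pxylp1 fell too (log2 fold change -2.53, limma adjusted p = 5.0e-06). Fam20b rose (log2 fold change 0.25, limma adjusted p = 0.0330, 0.0167 to 0.106 over the alternatives).

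Of 5 genes that polymerise or extend heparan sulfate, 4 fell in the KO line and 1 rose. Ext1 and Ext2 encode the subunits of the copolymerase. Ext1 (chr15:53064038-53346159, minus strand) had KO values of 347, 375 and 261 CPM and WT values of 600.3, 564 and 604 CPM (log2 fold change -0.86, SE 0.13, limma adjusted p = 5.1e-04), and every KO library lay below every WT library. Ext2 was at 122 ± 0.972 against 199 ± 21 CPM (log2 fold change -0.69, limma adjusted p = 1.5e-04). Of the exostosin-like genes, Extl3, which adds the first N-acetylglucosamine of the chain, fell with a log2 fold change of -0.37, and Extl2 with -0.52. Extl1 was the exception that rose, at low levels of 1.51 ± 0.310 against 0.885 ± 0.213 CPM (log2 fold change 0.76, limma adjusted p = 0.0333). Among the fits with 1 library left out, its call was lost without KO replicate 1, KO replicate 2, WT replicate 1 or WT replicate 2 (limma adjusted p = 0.0867, 0.103, 0.0808 and 0.108, in that order, 0.0189 to 0.108 over the alternatives).

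Heparan sulfate modification starts with N-deacetylation and N-sulfation by the Ndst enzymes. Ndst1 supplied 90.5% ± 0.92 of the summed Ndst level per kilobase in the KO line and 90% ± 1.13 in the WT line. It measured KO values of 402, 485 and 388 CPM and WT values of 499, 549.6 and 614 CPM (log2 fold change -0.39, SE 0.12, limma adjusted p = 0.0182), with every KO library below every WT library by a small margin. The call did not hold without KO replicate 1, KO replicate 3 or WT replicate 3 (limma adjusted p = 0.0669, 0.0579 and 0.0616, in that order, 0.0078 to 0.0669 over the alternatives). Ndst2 was at 22.2 ± 0.419 against 30.2 ± 0.430 CPM and Ndst3 at 4.54 ± 0.417 against 7.15 ± 0.738 CPM, and both fell (log2 fold change -0.44 and -0.65). Hs2st1, which sulfates the uronic acid, was at 96.9 ± 5.19 against 150.4 ± 17 CPM (log2 fold change -0.63, limma adjusted p = 5.3e-04).

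The 6-O-sulfotransferases held the largest fall of any member. Hs6st2 (chrX:51387212-51681856, minus strand) had KO values of 0.246, 0.314 and 0.292 CPM and WT values of 300.0, 322 and 276 CPM (log2 fold change -9.92, SE 0.13, limma adjusted p = 1.2e-09). It was near 0 in every KO library and among the most abundant members in every WT library. The lines held 32 and 35039 reads, a ratio of WT to KO of 1064 (exact 95% counting interval 753 to 1555). This interval and those below cover counting error only. Its isoenzyme Hs6st1 had KO values of 295, 318 and 252 CPM and WT values of 236, 255 and 242 CPM and did not pass (log2 fold change 0.23, SE 0.10, limma adjusted p = 0.0632). The groups overlapped, and it passed without KO replicate 3 (limma adjusted p = 0.0084, 0.0084 to 0.194 over the alternatives). Per kilobase of exon, Hs6st2 made up 46.5% ± 1.56 of the summed Hs6st level in the WT line and 0.0704% ± 0.0115 in the KO line, while the sum was 82.4 ± 4.31 and 52.1 ± 6.06 CPM per kilobase.

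Hs3st1, a 3-O-sulfotransferase known for the antithrombin-binding sequence, fell to 29.3 ± 6.25 against 79.7 ± 0.683 CPM (log2 fold change -1.46, limma adjusted p = 3.8e-05). Its relative Hs3st6 was low at 1.54 ± 0.0526 against 1.38 ± 0.669 CPM and did not pass (log2 fold change 0.26, limma adjusted p = 0.510); without WT replicate 3 its log2 fold change was -0.04.

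**Figure D3:**
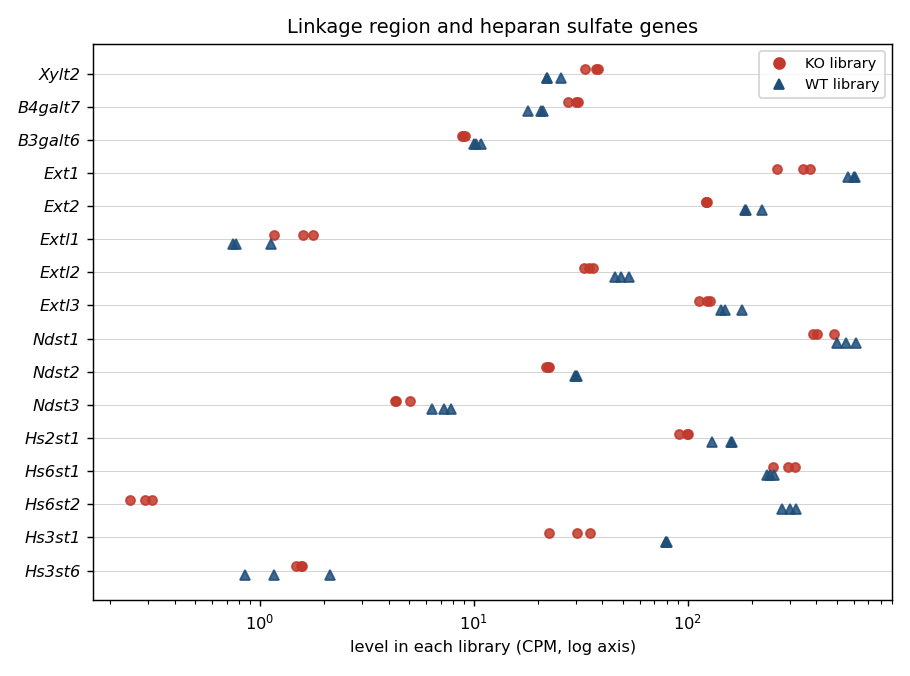
Level of each linkage region and heparan sulfate member in each library, in CPM on a log axis. Red circles are KO libraries and blue triangles WT libraries; Hs6st2 is the only gene whose lines stand about 3 decades apart, while Hs6st1 and Hs3st6 overlap.

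Both members that build the chondroitin chain fell. The synthase Chsy1 had KO values of 17.7, 18.8 and 17.9 CPM and WT values of 46.6, 42.6 and 39.7 CPM (log2 fold change -1.24, SE 0.09, limma adjusted p = 6.7e-06), with no overlap. Csgalnact2, an N-acetylgalactosaminyltransferase that starts and extends the chain, was at 22.7 ± 1.27 against 36.8 ± 2.03 CPM (log2 fold change -0.70, limma adjusted p = 1.8e-04). The polymerising factors Chpf and Chpf2 lie outside the member rule and did not fall. Chpf rose (log2 fold change 0.30, limma adjusted p = 0.0325, 0.0105 to 0.128 over the alternatives). Chpf2 did not pass (log2 fold change -0.08, limma adjusted p = 0.502).

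Sulfation of chondroitin and dermatan differed by enzyme. Chst11, a chondroitin 4-O-sulfotransferase (chr10:82985498-83195900, plus strand), had KO values of 0.320, 0.285 and 0.212 CPM and WT values of 55.1, 26.3 and 25.4 CPM (log2 fold change -6.82, SE 0.32, limma adjusted p = 3.8e-07). All KO libraries were below 1 CPM, and WT replicate 1 was about 2 times the other WT libraries. Chst15, which adds a second sulfate to an already sulfated N-acetylgalactosamine, had KO values of 0.714, 0.770 and 0.398 CPM and WT values of 35.6, 31.9 and 34.3 CPM (log2 fold change -5.75, SE 0.24, limma adjusted p = 2.2e-07). Chst12, another 4-O-sulfotransferase, had KO values of 44.3, 34.6 and 37.5 CPM and WT values of 56.3, 42.8 and 40 CPM and did not pass (log2 fold change -0.25, SE 0.15, limma adjusted p = 0.163), with overlapping groups. Chst11 made up 23.9% ± 4.85 of the level per kilobase of this pair in the WT line and 0.300% ± 0.0554 in the KO line.

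The other sulfotransferases of this role were higher in the KO line. Chst7, a chondroitin 6-O-sulfotransferase, had KO values of 15, 13 and 13.6 CPM and WT values of 4.31, 2.64 and 3.42 CPM (log2 fold change 2.02, SE 0.19, limma adjusted p = 2.6e-05), and its groups stood apart. Chst14, the 4-O-sulfotransferase of dermatan sulfate, was at 27 ± 1.49 against 21.5 ± 2.74 CPM (log2 fold change 0.34, limma adjusted p = 0.0290). This call was lost without KO replicate 1, KO replicate 3, WT replicate 2 or WT replicate 3 (limma adjusted p = 0.102, 0.0562, 0.0888 and 0.0894, in that order, 0.007 to 0.102 over the alternatives).

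All 3 sulfotransferases that act outside these chains fell. Chst1, which sulfates the galactose of keratan sulfate (chr2:92599707-92615250, plus strand), had KO values of 0.0246, 0.0571 and 0.0265 CPM and WT values of 14.7, 37.8 and 23.5 CPM (log2 fold change -8.61, SE 0.37, limma adjusted p = 2.6e-07). The KO line held 4 reads in all, and the ratio of WT to KO was 709.8 (exact 95% counting interval 277 to 2607). Chst2, which sulfates terminal N-acetylglucosamine, had KO values of 2.56, 1.74 and 1.09 CPM and WT values of 17.2, 13.8 and 13.6 CPM (log2 fold change -3.11, SE 0.29, limma adjusted p = 2.4e-05). Chst10, which makes the HNK-1 epitope of neural glycoproteins, had KO values of 0.443, 0.314 and 0.265 CPM and WT values of 3.93, 3.26 and 2.63 CPM (log2 fold change -3.18, SE 0.27, limma adjusted p = 1.6e-05). In each of the 3 genes the KO libraries were all below the WT libraries.

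Mucin-type O-glycans begin when a Galnt enzyme attaches N-acetylgalactosamine to serine or threonine, and the isoenzymes differ in the peptides they prefer. The most strongly risen member was Galnt3 (chr2:66082766-66124994, minus strand), with KO values of 75.2, 60.5 and 68.4 CPM and WT values of 0.0468, 0.0776 and 0.0565 CPM (log2 fold change 9.63, SE 0.20, limma adjusted p = 7.3e-09). The KO libraries lay close together, and the WT libraries held 7 reads in all, a ratio of KO to WT of 1140.3 (exact 95% counting interval 553 to 2837). Galnt14 had KO values of 10.5, 11.3 and 10.9 CPM and WT values of 124, 78.2 and 85 CPM (log2 fold change -3.10, SE 0.16, limma adjusted p = 7.8e-07), with all KO libraries near one another and far below WT. Galnt17 had KO values of 0, 0 and 0.0265 CPM and WT values of 4.78, 3.44 and 3.39 CPM (log2 fold change -6.87, SE 0.38, limma adjusted p = 1.1e-06). Its only KO read was in KO replicate 3, and the ratio of WT to KO was 444 (exact 95% counting interval 79.3 to 17569.8). Without that library the log2 fold change was -7.20 at 0 KO reads. Galnt18 had KO values of 3.62, 2.17 and 1.11 CPM and WT values of 0.0703, 0.310 and 0.113 CPM (log2 fold change 3.66, SE 0.56, limma adjusted p = 4.7e-04), with a WT mean of 0.0917 CPM once WT replicate 2 was left out.

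Other abundant Galnt genes had smaller fold changes. Galnt1 had KO values of 77.8, 84.7 and 73.1 CPM and WT values of 119.7, 107 and 112 CPM (log2 fold change -0.53, SE 0.08, limma adjusted p = 5.7e-04). Galnt10 had KO values of 107, 94.3 and 88 CPM and WT values of 85.7, 70.3 and 72.9 CPM (log2 fold change 0.34, SE 0.11, limma adjusted p = 0.0201). The first was the highest per kilobase in the WT line and the second in the KO line, though by length of the longest transcript Galnt14 was the highest in WT. Galnt10 no longer passed without KO replicate 1, WT replicate 2 or WT replicate 3 (limma adjusted p = 0.0799, 0.0807 and 0.0560, in that order, 0.0066 to 0.0807 over the alternatives). Galnt7 had KO values of 46.9, 49.3 and 47.7 CPM and WT values of 51.8, 43.3 and 42.8 CPM (log2 fold change 0.07, SE 0.09, limma adjusted p = 0.559). Galnt11 had KO values of 47, 46.4 and 49.2 CPM and WT values of 51.9, 47.3 and 45 CPM (log2 fold change -0.01, SE 0.08, limma adjusted p = 0.894). These genes, with overlapping groups, were among the 6 abundant members with the smallest differences. Galnt12 also did not pass (log2 fold change -0.09, limma adjusted p = 0.582).

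Galnt4 and Galnt2 fell, at 16.1 ± 1.17 against 20.3 ± 2.66 CPM and 0.346 ± 0.170 against 1.72 ± 0.209 CPM (log2 fold change -0.33, limma adjusted p = 0.0410, and log2 fold change -2.31, limma adjusted p = 3.8e-04). Galnt4 no longer passed without KO replicate 1, KO replicate 2, KO replicate 3, WT replicate 1 or WT replicate 2 (limma adjusted p = 0.0813, 0.0575, 0.112, 0.115 and 0.0853, in that order, 0.0228 to 0.115 over the alternatives), nor with median centring. Galnt2 shares 90% of its exon bases with the same-strand model Gm20388, so its reads are uncertain, and the value may not be the level of the gene.

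Summed per kilobase, the 11 Galnt genes stood at 71.6 ± 3.47 CPM per kilobase in KO and 74.0 ± 8.88 in WT, a difference smaller than the SD of the WT libraries. Within that sum, Galnt3 made up 21.7% ± 1.92 in KO and 0.0191% ± 0.00665 in WT. Galnt14 made up 2.59% ± 0.20 in KO and 21.7% ± 2.90 in WT. The share of Galnt1 was 19.9% ± 1.54 and 27.8% ± 1.86.

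**Figure D4:**
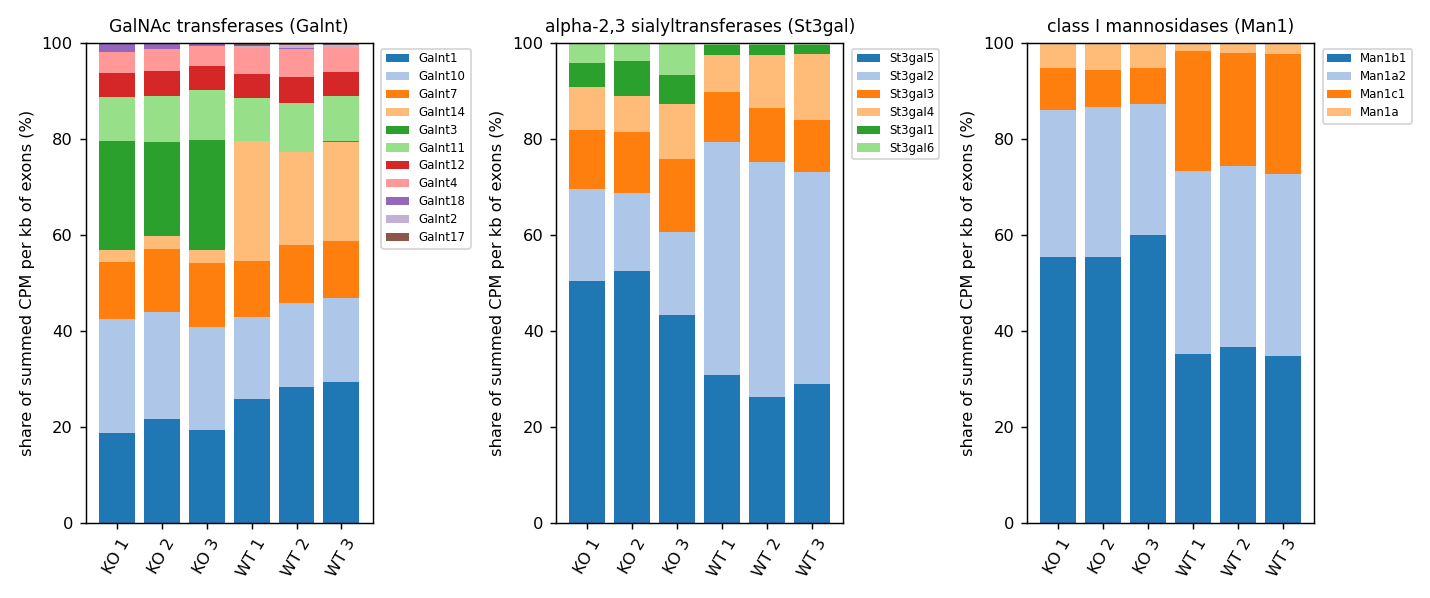
Share of each member in the summed CPM per kilobase of exons of its family, in percent, for each library. The Galnt panel shows Galnt3 (green) visible in KO bars and Galnt14 (light orange) mainly in WT bars, the St3gal panel the larger St3gal2 share in WT, and the Man1 panel the larger Man1b1 share in KO.

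Core branching of O-glycans was dominated by Gcnt1, the core 2 enzyme, with 88.1% ± 1.41 of the summed Gcnt level per kilobase in KO and 83.9% ± 4.71 in WT. It had KO values of 162, 242 and 269.9 CPM and WT values of 110.1, 116 and 177 CPM (log2 fold change 0.74, SE 0.23, limma adjusted p = 0.0183), and the groups overlapped. The call of Gcnt1 was lost without KO replicate 2, KO replicate 3, WT replicate 1 or WT replicate 2 (limma adjusted p = 0.0613, 0.0756, 0.0555 and 0.0588, in that order, 0.0017 to 0.0756 over the alternatives). Gcnt3, which makes core 2 and core 4 branches in mucin-secreting epithelia, had KO values of 2.63, 3.11 and 4.75 CPM and WT values of 0.960, 0.905 and 0.735 CPM (log2 fold change 1.94, SE 0.26, limma adjusted p = 2.3e-04). Gcnt4, another core 2 enzyme, had KO values of 0.0738, 0.0285 and 0.0531 CPM and WT values of 1.29, 1.16 and 1.39 CPM (log2 fold change -4.11, SE 0.34, limma adjusted p = 1.3e-05). Both stood apart between the lines at low levels. Gcnt2, which branches polylactosamine, was at 30.9 ± 6.34 against 27 ± 4.49 CPM and did not pass (log2 fold change 0.19, limma adjusted p = 0.347).

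N-glycans are trimmed by mannosidases before complex branches can be built. Of the class I enzymes, Man1a had KO values of 25.5, 26.9 and 23.9 CPM and WT values of 10.4, 11.8 and 13.6 CPM (log2 fold change 1.10, SE 0.12, limma adjusted p = 8.0e-05). Man1b1, the endoplasmic reticulum member, had KO values of 147, 146 and 153 CPM and WT values of 113, 116 and 111 CPM (log2 fold change 0.39, SE 0.07, limma adjusted p = 8.3e-04). Both rose without overlap. Man1a2 had KO values of 121, 122 and 103 CPM and WT values of 181, 175 and 178 CPM (log2 fold change -0.63, SE 0.08, limma adjusted p = 2.0e-04). Man1c1 fell to 22 ± 1.97 against 82.7 ± 3.47 CPM (log2 fold change -1.91, limma adjusted p = 4.4e-07). Man2a1 and Man2a2, the class II enzymes, did not pass. Man2a2 had KO values of 94.5, 96.8 and 104 CPM and WT values of 99.3, 98.8 and 89.1 CPM (log2 fold change 0.04, SE 0.08, limma adjusted p = 0.676), with overlapping groups, and Man2a1 was at 91.7 ± 17.6 against 107 ± 11 CPM. The class I sum was 48.6 ± 0.98 CPM per kilobase in KO and 59.0 ± 0.73 in WT.

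Of 6 branching enzymes of N-glycans 3 rose, 1 fell and 2 did not pass. Mgat3, which adds the bisecting N-acetylglucosamine that hinders further branching, had KO values of 7.53, 13.2 and 7.51 CPM and WT values of 157, 168 and 139.8 CPM (log2 fold change -4.09, SE 0.21, limma adjusted p = 6.5e-07; chr15:80173721-80215519, plus strand). KO replicates all lay more than 10-fold below the mean of the WT libraries, with 1 of them above the other two. Mgat4a and Mgat4b add the same branch. Mgat4a had KO values of 20, 23.5 and 19.1 CPM and WT values of 4.80, 5.10 and 5.65 CPM (log2 fold change 2.0, SE 0.13, limma adjusted p = 3.0e-06). Mgat4b had KO values of 296, 249 and 249.9 CPM and WT values of 167, 152 and 161 CPM (log2 fold change 0.72, SE 0.09, limma adjusted p = 1.5e-04). In both genes every KO library was above every WT library, and Mgat4b held 98.3% ± 0.28 of their summed level per kilobase in KO and 99.3% ± 0.07 in WT. Mgat1, which starts hybrid and complex chains, rose to 109 ± 5.49 against 78.2 ± 3.77 CPM (log2 fold change 0.48, limma adjusted p = 5.9e-04). Mgat2 and Mgat5 did not pass, at 105 ± 11.4 against 94 ± 3.59 CPM and 79.7 ± 4.94 against 90.2 ± 13.5 CPM. Mgat2 passed without KO replicate 2 (limma adjusted p = 0.0419, 0.0419 to 0.505 over the alternatives).

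Galactose and N-acetylglucosamine extend the branches, and N-acetylgalactosamine can replace the galactose. B4galnt3, which makes this LacdiNAc unit (chr6:120203073-120294559, minus strand), had KO values of 112, 143 and 109 CPM and WT values of 0.468, 0.233 and 0.0848 CPM (log2 fold change 8.96, SE 0.46, limma adjusted p = 6.9e-07). It was the chain extension member with the highest level per kilobase in the KO line, at 32.2 ± 5.01 CPM per kilobase, and the ratio of KO to WT was 441 (exact 95% counting interval 312 to 645). The low WT mean went to 0.159 CPM with WT replicate 1 left out. B4galnt4, with the same activity, was at 7.43 ± 1.67 against 5.07 ± 0.501 CPM (log2 fold change 0.53, limma adjusted p = 0.0311), and no longer passed without KO replicate 2, WT replicate 1 or WT replicate 2 (limma adjusted p = 0.108, 0.0779 and 0.0702, in that order, 0.0256 to 0.108 over the alternatives). B4galnt3 made up 94.4% ± 0.37 of the level per kilobase of the pair in KO and 5.16% ± 4.04 in WT. B4galnt2, which makes the Sda antigen, had KO values of 1.85, 2.77 and 1.22 CPM and WT values of 0.164, 0.0776 and 0.113 CPM (log2 fold change 3.74, SE 0.39, limma adjusted p = 4.6e-05), with no overlap.

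B3gnt3, which extends core 1 O-glycans, had KO values of 8.78, 14.4 and 13 CPM and WT values of 0.0468, 0 and 0.113 CPM (log2 fold change 7.53, SE 0.56, limma adjusted p = 6.1e-06). The WT line held 6 reads, a ratio of KO to WT of 232 (exact 95% counting interval 106 to 633). The log2 fold change was 6.88 without WT replicate 2 and 8.08 without WT replicate 3, where the WT level was 0.0234 CPM. B3gnt7, which builds the polylactosamine of keratan sulfate, had KO values of 5.44, 3.28 and 3.08 CPM and WT values of 0, 0 and 0 CPM (log2 fold change 7.20, SE 0.34, limma adjusted p = 4.4e-07). Against 3 reads over the WT group it was at least 155-fold higher in KO. Both were thus above WT in every KO library. B3gnt9 fell at low levels, to 0.591 ± 0.0198 against 1.28 ± 0.287 CPM (log2 fold change -1.06, limma adjusted p = 0.0056). Of its exon bases 16.5% lie opposite D230025D16Rik, which was at 27.9 ± 2.12 against 30.8 ± 2.04 CPM, so part of the B3gnt9 reads is uncertain.

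Of the galactosyltransferases of this role, 2 rose, 2 fell and 1 did not pass. B4galt1, the main enzyme of lactosamine synthesis, had KO values of 89, 93.4 and 85.8 CPM and WT values of 95.5, 93.4 and 105 CPM (log2 fold change -0.13, SE 0.08, limma adjusted p = 0.160). It did not pass, with KO replicate 2 and WT replicate 2 both at 93.4 CPM, and it was the chain extension member with the highest level per kilobase in WT. B4galt3 had KO values of 67.5, 71.1 and 75 CPM and WT values of 25, 24 and 21.9 CPM (log2 fold change 1.59, SE 0.09, limma adjusted p = 9.8e-07), clear of WT in all libraries. B4galt4 rose to 53.3 ± 1.94 against 36.5 ± 3.16 CPM (0.55 log2), and B4galt2 fell to 17.7 ± 1.48 against 38.3 ± 1.30 CPM (-1.11 log2). B4galt2 shares 28.2% of its exon bases with the same-strand model Ccdc24, so part of its reads is uncertain. B3galt1, a galactosyltransferase of type 1 chains, had KO values of 2.76, 3.25 and 2.39 CPM and WT values of 24.3, 21 and 19.2 CPM (log2 fold change -2.93, SE 0.16, limma adjusted p = 1.0e-06). B3galnt2, which acts on the O-mannose glycan of dystroglycan, fell by 0.53 on the log2 scale, and B3gntl1 did not pass (log2 fold change 0.07, limma adjusted p = 0.618). The 7 B4galt genes, those of other roles included, summed to 87.3 ± 0.38 CPM per kilobase in KO and 72.1 ± 3.89 in WT.

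Sialic acid caps chains in alpha-2,3, alpha-2,6 or alpha-2,8 linkage, and 5 of 9 tested sialyltransferases of glycoproteins fell and 3 rose. St3gal2, which acts on O-glycans and gangliosides (chr8:110919922-110972480, plus strand), had KO values of 81.9, 71.3 and 63.5 CPM and WT values of 321, 282 and 280.3 CPM (log2 fold change -2.03, SE 0.11, limma adjusted p = 7.9e-07). It was the sialylation member with the highest level per kilobase in WT, and St6gal1 in KO. St6gal1, which puts alpha-2,6 sialic acid on N-glycans, had KO values of 233, 207 and 180.2 CPM and WT values of 122, 128 and 151 CPM (log2 fold change 0.63, SE 0.12, limma adjusted p = 0.0015). Both genes stood apart between the lines. St3gal6, which caps lactosamine, had KO values of 22, 19.9 and 29.9 CPM and WT values of 3.28, 3.29 and 3.93 CPM (log2 fold change 2.75, SE 0.18, limma adjusted p = 2.5e-06). Of its exon bases 26.0% lie opposite Dcbld2, which was at 370 ± 76.7 against 190 ± 36.8 CPM (log2 fold change 0.96, limma adjusted p = 0.0015). Part of the St3gal6 reads is therefore uncertain.

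Among the other sialyltransferases, St3gal1, which caps core 1, rose to 34.1 ± 7.91 against 17.3 ± 1.62 CPM (log2 fold change 0.96, limma adjusted p = 7.9e-04). St3gal3 and St3gal4 fell to 29.7 ± 1.12 against 37.2 ± 1.26 CPM and 22 ± 2.58 against 39.1 ± 10.5 CPM. St6galnac4, which adds a second sialic acid to core 1 chains, had KO values of 0.664, 0.913 and 1.27 CPM and WT values of 17.8, 15.9 and 19.7 CPM (log2 fold change -4.23, SE 0.24, limma adjusted p = 1.2e-06). St8sia2, which makes polysialic acid on the neural cell adhesion molecule, had KO values of 3.13, 4.02 and 2.23 CPM and WT values of 29.6, 14.5 and 16.4 CPM (log2 fold change -2.65, SE 0.30, limma adjusted p = 8.3e-05). In both, all KO libraries were below all WT libraries. St6galnac2 had KO values of 26.9, 27.4 and 30.5 CPM and WT values of 29.3, 29.8 and 28.7 CPM and did not pass (log2 fold change -0.05, SE 0.09, limma adjusted p = 0.623). In the summed St3gal level per kilobase, St3gal2 went from 47.1% ± 2.73 in WT to 17.6% ± 1.45 in KO, and the sum was 124 ± 8.71 and 81.2 ± 7.27 CPM per kilobase. This sum includes St3gal5 of the glycolipid role, which made up 28.7% ± 2.35 in WT and 48.7% ± 4.74 in KO.

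Fucosyltransferases split into 1 gene that rose and 3 that fell. Fut1, which makes the H antigen by adding alpha-1,2 fucose (chr7:45617289-45621059, plus strand), had KO values of 5.12, 4.42 and 6.39 CPM and WT values of 0.0468, 0.129 and 0.0848 CPM (log2 fold change 5.61, SE 0.33, limma adjusted p = 1.6e-06). The ratio of KO to WT was 62.2 (exact 95% counting interval 33.6 to 130.3), and every KO library was far above every WT library. Fut8, which adds core fucose to N-glycans, fell to 30.7 ± 1.45 against 56.6 ± 7.58 CPM (log2 fold change -0.87, limma adjusted p = 1.3e-04). Fut10 had KO values of 23.4, 21.5 and 24.8 CPM and WT values of 48.6, 51.6 and 51.7 CPM (log2 fold change -1.12, SE 0.09, limma adjusted p = 8.7e-06), and Fut11 was at 6.20 ± 0.809 against 15.7 ± 1.44 CPM (log2 fold change -1.34, limma adjusted p = 5.6e-05). Fut10 was highest per kilobase of exon in both lines, and Fut8 by the longest transcript.

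Glycolipid synthesis starts from glucosylceramide, to which B4galt5 and B4galt6 add galactose. B4galt5 had KO values of 60.1, 59.4 and 55.6 CPM and WT values of 57.5, 52.5 and 63.3 CPM (log2 fold change 0.02, SE 0.09, limma adjusted p = 0.867), with overlapping groups, while B4galt6 rose to 54.2 ± 0.615 against 31 ± 5.75 CPM (log2 fold change 0.82, limma adjusted p = 5.0e-04). St3gal5, the GM3 synthase, had the highest level per kilobase of the role in both lines. It had KO values of 111, 118 and 82.7 CPM and WT values of 106, 78.6 and 96.2 CPM and did not pass (log2 fold change 0.15, SE 0.16, limma adjusted p = 0.428).

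Further enzymes of the role include the widest differences. St8sia1, the GD3 synthase, had KO values of 4.33, 6.22 and 4.25 CPM and WT values of 0.0468, 0.0517 and 0.283 CPM (log2 fold change 5.34, SE 0.54, limma adjusted p = 3.9e-05), with every KO library above WT. The log2 fold change was 6.02 without WT replicate 3, where the WT level was 0.0493 CPM. B4galnt1, which makes GM2 and GD2, was at 84.5 ± 1.72 against 71.5 ± 7.66 CPM (log2 fold change 0.25, limma adjusted p = 0.0380). B4galnt1 no longer passed without KO replicate 1, KO replicate 2, KO replicate 3, WT replicate 1 or WT replicate 2 (limma adjusted p = 0.0900, 0.0681, 0.0839, 0.0712 and 0.162, in that order, 0.0114 to 0.162 over the alternatives), nor without the trend of spread with mean level. B3galnt1, the globoside synthase (chr3:69574158-69598960, minus strand), had KO values of 0.0246, 0.0856 and 0.0265 CPM and WT values of 27.9, 21.9 and 22.1 CPM (log2 fold change -8.48, SE 0.33, limma adjusted p = 1.6e-07). The ratio of WT to KO was 548 (exact 95% counting interval 235 to 1689), and the KO level was 0.0256 CPM without KO replicate 2. St6galnac6 fell to 12.1 ± 2.64 against 21.9 ± 1.34 CPM. B3gnt5, which begins the lacto-series, and B3galt4, which makes GM1, did not pass, at 3.08 ± 0.187 against 3.66 ± 0.220 CPM and 4.66 ± 0.271 against 3.91 ± 0.322 CPM. Without that trend B3gnt5 did pass (limma adjusted p = 0.0456).

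B3gnt4, the member that was not tested, had KO values of 1.13, 1.11 and 0.610 CPM and WT values of 0.632, 0.440 and 0.481 CPM. Of its exon bases 93.2% lie opposite Diablo, so its reads cannot be assigned with certainty. In all, 32 members share exon bases with another gene model and 12 with a gene of the table. Of these 6 share at least 10%: B3gnt4, B3gnt9, B4galnt1, B4galt3, St3gal4 and St3gal6. The kit marked the strand, but the strand setting of the counting is not given in the sources used here. Ppox, opposite 14.5% of the exon bases of B4galt3, did not pass (log2 fold change -0.12, limma adjusted p = 0.387).

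Genes of the same pathways outside the member rule were counted from lists. Of 26 tested enzymes that supply activated sugars and sulfate, 9 rose (34.6%), 6 fell (23.1%) and 11 did not pass, against 34.3% and 33.8% of all genes, with a median log2 fold change of 0.18. Cmas, which activates sialic acid, rose to 67 ± 1.51 against 29.5 ± 0.336 CPM, Bpnt1, which clears the spent sulfate donor, to 66.9 ± 5.12 against 24.3 ± 0.770 CPM and the fucose kinase Fcsk to 41.2 ± 1.99 against 27 ± 1.95 CPM. Ugdh, which makes the glucuronic acid donor, fell to 41.6 ± 2.71 against 101 ± 12.5 CPM, Gmds, of GDP-fucose synthesis, to 54.1 ± 5.30 against 97.8 ± 0.969 CPM and Uap1l1 to 44.1 ± 4.10 against 75.6 ± 17.6 CPM. The sulfate donor synthases Papss1 and Papss2 were at 99.9 ± 5.0 against 87.5 ± 12 CPM and 14.4 ± 4.94 against 15.7 ± 2.15 CPM and did not pass (log2 fold change 0.20, limma adjusted p = 0.127, and log2 fold change -0.17, limma adjusted p = 0.530). Papss1 passed without WT replicate 1 (limma adjusted p = 0.0242, 0.0242 to 0.389 over the alternatives), and Papss2 without KO replicate 1 (limma adjusted p = 0.0464, 0.0464 to 0.929 over the alternatives).

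The transporter list held the SLC35 genes, many of which carry sugar donors or the sulfate donor into the Golgi, and the plasma membrane sulfate transporter Slc26a2. Of 14 tested, 5 rose (35.7%), 3 fell (21.4%) and 6 did not pass, against 34.3% and 33.8% of all genes, with a median of 0.00. The GDP-fucose transporter Slc35c1 rose to 46.3 ± 6.37 against 23.1 ± 2.52 CPM, Slc35b1, an ATP/ADP exchanger of the endoplasmic reticulum, to 68.9 ± 7.38 against 43.7 ± 3.00 CPM and Slc35c2 to 35 ± 0.184 against 24.3 ± 1.59 CPM. Slc35a4 fell to 57 ± 3.17 against 94 ± 2.17 CPM, Slc35b4 to 57.2 ± 1.55 against 70.4 ± 6.17 CPM and Slc35d1 to 14.7 ± 0.916 against 19.3 ± 2.77 CPM. Slc35d1 no longer passed without KO replicate 2, KO replicate 3, WT replicate 1 or WT replicate 2 (limma adjusted p = 0.0624, 0.0735, 0.0717 and 0.0681, in that order, 0.0104 to 0.0735 over the alternatives). The CMP-sialic acid transporter Slc35a1 (log2 fold change -0.07, limma adjusted p = 0.580) and the sulfate donor transporters Slc35b2 (log2 fold change 0.15, limma adjusted p = 0.213) and Slc35b3 (log2 fold change -0.09, limma adjusted p = 0.587) did not pass.

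Other glycosaminoglycan enzymes went both ways, with 12 of 26 tested that rose (46.2%), 10 that fell (38.5%), 4 that did not pass and a median of 0.10, against 34.3% and 33.8% of all genes. Sulf1, an extracellular sulfatase that removes 6-O-sulfate from heparan sulfate, had KO values of 0.0492, 0.0285 and 0.133 CPM and WT values of 81.6, 67.6 and 56.9 CPM (log2 fold change -9.61, SE 0.37, limma adjusted p = 1.4e-07). It thus stood at a level near 0 in the KO line, like Hs6st2, and was 0.0389 CPM there without KO replicate 3. Sulf2, with the same activity, fell to 295 ± 45.3 against 387 ± 63.1 CPM (log2 fold change -0.39, limma adjusted p = 0.0415). Its call did not hold without KO replicate 2, KO replicate 3 or WT replicate 1 (limma adjusted p = 0.0708, 0.132 and 0.120, in that order, 0.0109 to 0.132 over the alternatives), nor without the intensity trend or with median centring. The epimerase of heparan sulfate, Glce, fell to 67.7 ± 2.00 against 82 ± 6.83 CPM (log2 fold change -0.27, limma adjusted p = 0.0165), and no longer passed without KO replicate 1 or WT replicate 3 (limma adjusted p = 0.0611 and 0.0547, in that order, 0.0147 to 0.0611 over the alternatives).

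Of the dermatan sulfate epimerases, Dse fell to 1.93 ± 0.345 against 31 ± 1.62 CPM and Dsel rose to 59.8 ± 10.1 against 22.5 ± 3.31 CPM (log2 fold change -4.0, limma adjusted p = 1.7e-07, and log2 fold change 1.41, limma adjusted p = 5.9e-05). Ust, which sulfates uronic acid in these chains, rose to 11.4 ± 2.92 against 1.74 ± 0.290 CPM. Of the enzymes that break down hyaluronan, Cemip fell to 1.73 ± 0.860 against 102 ± 20.6 CPM and Hyal1 rose to 23.1 ± 3.65 against 3.42 ± 1.38 CPM.

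Of 17 tested core proteins that carry these chains, 5 rose (29.4%), 9 fell (52.9%) and 3 did not pass, against 34.3% and 33.8% of all genes, with a median of -0.54. Without KO replicate 1, WT replicate 2 or WT replicate 3 the number that rose was 3. Fmod, which carries keratan sulfate, fell to 0.0272 ± 0.0266 against 11.6 ± 3.97 CPM, with 3 KO reads and a ratio of WT to KO of 441 (exact 95% counting interval 151 to 2142). Its KO level was 0.0143 CPM without KO replicate 3. Bgn fell to 0.149 ± 0.0457 against 21.7 ± 2.17 CPM and the syndecan Sdc2 to 20 ± 2.79 against 504 ± 10.2 CPM. Vcan rose to 7.89 ± 3.27 against 1.47 ± 0.0252 CPM, Sdc1 to 640.3 ± 54.8 against 357 ± 106 CPM and Sdc3 to 144 ± 51.4 against 81 ± 23.1 CPM. Sdc3 no longer passed without KO replicate 1, WT replicate 2 or WT replicate 3 (limma adjusted p = 0.0595, 0.0710 and 0.0531, in that order, 3.0e-04 to 0.0710 over the alternatives).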

How the data were processed

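Per the labels' protocols, 100 ng of total RNA was made into stranded mRNA libraries. The genome was GRCm38, with edgeR, featureCounts, Subread 1.6.4, STAR 2.7.3a and Trimmomatic 0.39 named per the submitters' processing notes. Annotation, strand setting and filter: not given in the sources used here. The authors deposited log2 CPM. All values were whole multiples of 1 read within 0.001 once the shared prior (1 read on average, lowest value -5.26) was removed, and CPM in the text is without it.

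limma 3.58.1 (R 4.3.3; lmFit, eBayes with trend) tested KO minus WT on the deposited log2 CPM over the 12616 genes above 0 log2 CPM in at least 3 of 6 libraries, and 187 were not tested. The threshold was a Benjamini-Hochberg adjusted p under 0.05 over all genes tested. The procedure was tested on simulated data with 100 genes changed 2-fold and 100 changed 4-fold among 12092, at a dispersion of 0.01. All changed genes passed with the right sign, as did 6 of 11892 unchanged genes in error. A far smaller part of the genes was changed there than passed here, so the simulation does not give the error rate in these data. An exact permutation test of 3 against 3 libraries cannot go below p = 0.1.

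Alternatives were no filter or a stricter one (1 log2 CPM), no trend, robust eBayes, a pseudocount of 1 CPM, median centring, upper quartile scaling, limma voom on whole reads, a replicate block, and leaving out each of the 6 libraries. For 88 of 89 members GENCODE M21 gave 1 gene model, whose exon union is the length used per kilobase; St6galnac2 had more and has no such level. Coordinates count from 1.

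Per-library values are given for the 14 members that rose and the 14 that fell most (past the threshold, groups apart, at least 1 CPM in the higher line), the highest per kilobase of each role and line, and the 6 least different with at least 10 CPM in both lines. Of the pathway lists up to 3 risen and 3 fallen genes and a few set by name are given. The members, lists and roles were chosen with earlier results of these data known.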

Additional observations from a re-analysis of the deposited data

How the results depend on the processing

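Of 15 alternatives the stricter filter gave values for 81 of the 88 tested members and the others for all 88. In every alternative that gave them a value, 71 members kept their call and direction, 61 of which had passed, and 84 kept their direction. The other 4, none of which passed, changed sign with 1 library left out: log2 fold changes ran from -0.049 to 0.086 in B4galt5, -0.059 to 0.043 in Galnt11 (0.0068 with median centring), -0.036 to 0.62 in Hs3st6 and -0.012 to 0.067 in Man2a2. The members that rose numbered 23 to 29 and those that fell 37 to 42 over the alternatives. Leaving out 1 library gave 3 to 5 risen core proteins, against 5 with all libraries. The highest member per kilobase was the same by longest transcript in 24 of 28 combinations of role and line. Scaling moved the median of all genes to at most 0.03 (log2).

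The replicate numbers did not pair the libraries: deviations of same-numbered KO and WT libraries correlated at 0.10, 0.08 and -0.10. With the number as a replicate block 28 members rose and 41 fell, and 86 kept their call, while Extl1 did not pass (limma adjusted p = 0.0722) and Chst12 did (limma adjusted p = 0.0493).

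Levels under 3 reads a library are limited by depth. Genes above 0 log2 CPM in fewer than 3 libraries were not tested. Fitted folds of members near 0 reads depend on the prior count.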

Other observations

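Glycan enzymes outside the families above also went both ways. Of 42 tested, 18 rose (42.9%), 12 fell (28.6%) and 12 did not pass, against 34.3% and 33.8% of all genes, with a median log2 fold change of 0.19. Gal3st1, which makes sulfatide, had KO values of 23.6, 17.8 and 25.3 CPM and WT values of 0, 0 and 0 CPM, at least 871-fold higher against 3 reads over the WT group. Ugt8a, which makes the galactosylceramide that Gal3st1 sulfates, rose to 13.3 ± 3.46 against 1.08 ± 0.490 CPM (log2 fold change 3.68, limma adjusted p = 4.9e-05). Large2, which extends the matriglycan of dystroglycan, rose to 17 ± 1.61 against 0.646 ± 0.152 CPM (log2 fold change 4.69, limma adjusted p = 3.0e-07). Casd1, which acetylates sialic acid, fell to 4.44 ± 1.14 against 25.1 ± 3.84 CPM, the lysosomal hexosaminidase subunit Hexa to 36.5 ± 4.77 against 132 ± 9.20 CPM and Lfng, which extends O-fucose on Notch, to 18 ± 4.21 against 31.7 ± 1.61 CPM.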
